A study of Mus musculus with 2 samples.

Results

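Mir499, Mir208b, Mir208a and Mir486 are miRNA genes that lie inside introns of protein-coding genes of striated muscle. They were found among the listed genes by Ensembl identifier, matched to their names and hosts in the GENCODE M21 annotation of the same mouse genome build, and all 4 were present among 1973 listed genes. Mir499 lies in Myh7b, Mir208b in Myh7, Mir208a in Myh6 and Mir486 in Ank1. The study sequenced small RNA from mouse skeletal muscle on the day of birth (age 0 days). The 2 libraries came from strain B6NCrl, with no treatment and no engineered allele named in the labels. Each was made from 1 skeletal muscle of 1 pup, and both pups had the same mother. They are called replicate 1 (pup 1) and replicate 2 (pup 2). The labels do not say which muscle was taken, and sex was not collected.

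Myh6 and Myh7 encode the alpha and beta cardiac myosin heavy chains. Beta myosin is also the heavy chain of slow skeletal fibres, and Myh7b encodes a related slow-type myosin. The miRNAs in their introns are cut from the host transcript, and in mice miR-208b and miR-499 are known to favour slow fibre genes by repressing transcriptional repressors such as Sox6. Ank1 encodes ankyrin, a membrane adaptor with red cell forms and a short muscle form. Its miRNA, miR-486, is known both from muscle and from red blood cells.

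The hairpins of the 3 myosin miRNAs are shown because their mature sequences explain how the family is grouped and where its members differ. They are RefSeq sequences on GRCm38.p6, written 5′ to 3′ on the gene's own strand, with both mature arms in capitals.

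Mir499, chr2:155622880-155622958, plus strand: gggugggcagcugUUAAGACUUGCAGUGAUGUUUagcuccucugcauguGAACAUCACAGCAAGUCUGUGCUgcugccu

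Mir208b, chr14:54975700-54975776, minus strand: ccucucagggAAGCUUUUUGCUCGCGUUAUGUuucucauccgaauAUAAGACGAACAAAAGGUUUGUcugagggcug

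Mir208a, chr14:54949060-54949142, minus strand: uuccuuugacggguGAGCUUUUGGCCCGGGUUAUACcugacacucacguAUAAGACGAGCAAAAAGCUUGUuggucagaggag

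Among the mature products, the seed is the stretch of bases 2 to 8 that pairs with a target. It is in capitals in the lines below, which set the related arms against each other. RefSeq sequences were matched for 3 of the 4 genes, all but Mir486.

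mmu-miR-499-5p: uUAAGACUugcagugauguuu

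mmu-miR-208b-3p: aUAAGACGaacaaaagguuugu

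mmu-miR-208a-3p: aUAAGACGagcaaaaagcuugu

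mmu-miR-208b-5p: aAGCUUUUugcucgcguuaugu

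mmu-miR-208a-5p: gAGCUUUUggcccggguuauac

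mmu-miR-499-3p: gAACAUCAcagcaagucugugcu

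The 3p arms of Mir208a and Mir208b carried the same seed, UAAGACG, and no other of the 1738 mature sequences in the table had it. They were identical at 19 of 22 positions and differed by G10A, A16G and C18U, counted from the 5′ end with the base of miR-208a-3p first. The 5p arm of Mir499 shared bases 2 to 7 with both (UAAGAC) and differed at base 8, by U8G with the miR-499-5p base first. Those 3 mature sequences were the only ones of the 1738 with UAAGAC at bases 2 to 7. The 5p arms of Mir208a and Mir208b also had a common seed, AGCUUUU, which they shared with mmu-miR-6415, whose gene had 0 counts in both libraries. Within the seed the miR-208 arms are therefore the same, and the letters that tell Mir208a and Mir208b reads apart lie in the rest of the molecule. The longest run that any of the 6 mature arms shared with the hairpin of another miRNA gene, on either strand, was 14 bases, between miR-208a-3p and the reverse complement of the 5p side of the Mir208b hairpin. This search covered the other 1004 hairpins in the table, not the genome.

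All 4 hairpins lay on the same strand as the host, and no coding transcript of the host had an exon over any of them (mm10 coordinates, GENCODE M21). Mir499 lay in intron 19 of 41 of the principal Myh7b transcript, an intron of 481 bases. Mir208b (in intron 31 of 40 of Myh7, 461 bases long) and Mir208a (in intron 29 of 38 of Myh6, 542 bases long) lay in similarly short introns. Myh6 and Myh7 are neighbours on chromosome 14, 3.76 kb apart, which puts 26.6 kb between the Mir208a and Mir208b hairpins. Mir486 (chromosome 8, 23142555 to 23142682, plus strand) was placed differently. It lay in the last of the 44 introns of the principal Ank1 transcript, 6560 bases long. The nearest annotated start of an Ank1 transcript that contained it was 3.28 kb upstream and the farthest 168 kb, while Mir499, Mir208b and Mir208a lay 11.7, 18.9 and 17.5 kb from the nearest start. Mir486 was also the only one of the 4 with another miRNA gene over it. Mir3107, also named mir-486b, lies on the minus strand at 23142573 to 23142662, and it was not among the listed genes.

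**Figure D1:**
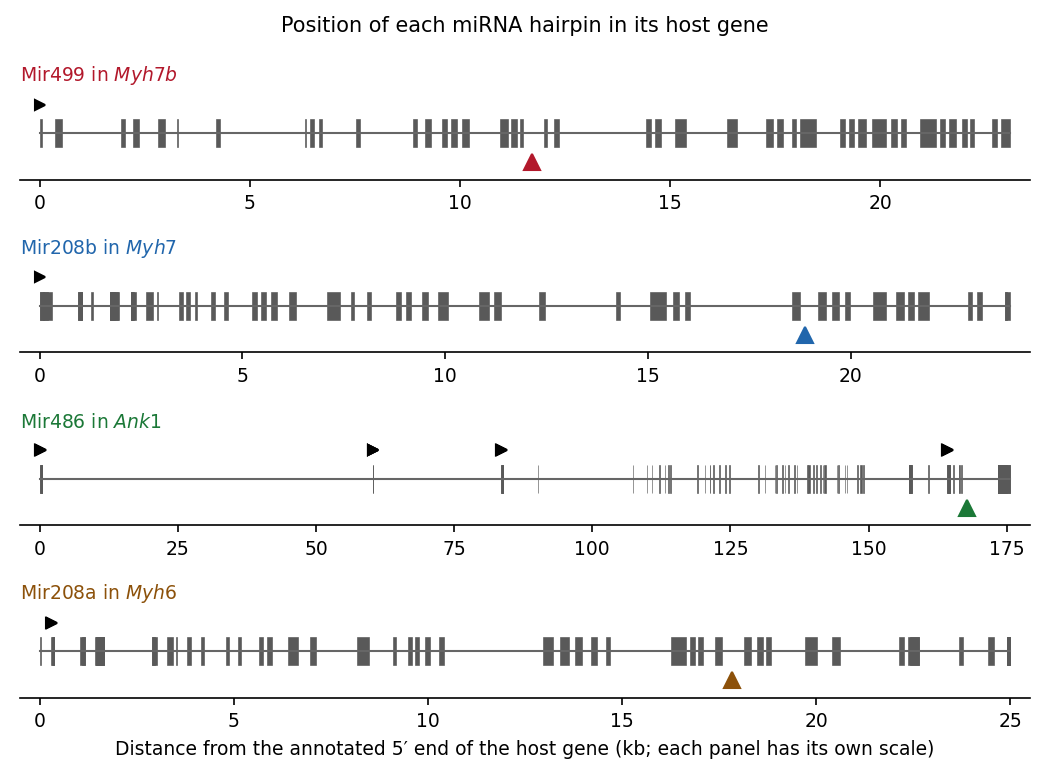
Position of each hairpin (coloured triangle) along its host gene in kb from the host's annotated 5′ end, with all exons of coding transcripts as grey boxes and the starts of transcripts that contain the hairpin as black arrowheads. The 3 myosin hairpins lie 11.7 to 18.9 kb from the nearest start of their hosts, whereas Mir486 has an annotated Ank1 start 3.28 kb upstream.

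Mir499 and Mir208b were present at near equal levels, Mir486 at a lower counted level, and Mir208a at the lowest. Levels are own-strand counts scaled to a library total of 1000000 own-strand reads in miRNA genes (CPM). A small RNA read was taken as 1 whole mature sequence, so CPM is not divided by length except where stated. How evenly different miRNAs entered the libraries was not tested, so levels and ratios between genes are those of reads, not of molecules. Replicate 1 held 3754895 such reads and replicate 2 held 5133949. Each gene count joins the 5p and 3p arms, which were not counted apart.

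Mir499 had 2150 reads in replicate 1, or 573 CPM, and 3215 reads in replicate 2, or 626 CPM. Mir208b had 2103 reads (560 CPM) and 2912 reads (567 CPM). The means were 599 ± 37.9 CPM for Mir499 and 564 ± 5.05 CPM for Mir208b (SD, n = 2). Mir499 was the higher in both libraries, but the difference of the means, 35.8 CPM, was smaller than the larger SD. Of the reads of this pair, Mir499 held 50.6% in replicate 1 (exact Clopper-Pearson 95% interval 49.0 to 52.1) and 52.5% in replicate 2 (51.2 to 53.7). The pair could therefore not be ordered beyond its spread, and in replicate 1 not beyond counting error.

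Mir486 had 231 reads in replicate 1, or 61.5 CPM, and 411 reads in replicate 2, or 80.1 CPM, a mean of 70.8 ± 13.1 CPM (SD, n = 2). Both values lay below all values of Mir499 and Mir208b. Multimapping reads stood outside the counts, and whether Mir486 reads were among them, for example through the overlapping Mir3107, was not tested, so its level, rank and ratios are uncertain. Mir208b reads outnumbered Mir486 reads by a mean ratio of 8.09 ± 1.43 (SD, n = 2). Per kb of annotated hairpin, which is 128 bases for Mir486 and 77 for Mir208b, the ratio of the mean levels was 13.2.

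Mir208a had 32 reads in replicate 1, or 8.52 CPM (exact Poisson 95% interval 5.83 to 12.0), and 68 reads in replicate 2, or 13.2 CPM (10.3 to 16.8). Its mean was 10.9 ± 3.34 CPM (SD, n = 2), the lowest of the 4. Both values were above the limit that a count of 0 would allow, 0.799 CPM in replicate 1 and 0.584 CPM in replicate 2. Intervals and limits cover counting error only. The aligner and the mismatches it allowed are not stated. Whether some Mir208b reads were assigned to Mir208a was not tested, so the Mir208a level, rank and ratios are uncertain in that respect.

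The 2 paralogues with the same 3p seed thus stood at very different levels. Mir208b, from the gene of beta myosin, had 65.7 times the reads of Mir208a, from the gene of alpha myosin, in replicate 1, and 42.8 times in replicate 2. Of the reads of the pair, Mir208b held 98.5% in replicate 1 (97.9 to 99.0) and 97.7% in replicate 2 (97.1 to 98.2), both exact Clopper-Pearson 95% intervals. Mir486 lay between them, with 7.22 and 6.04 times the reads of Mir208a. The order Mir499, Mir208b, Mir486, Mir208a was the same in both libraries by reads and in the means per kb of hairpin. Per kb in replicate 1 alone, Mir499 was at 0.996 times the level of Mir208b. Of the 3 steps in this order, the first was within the spread between libraries. In bulk tissue, fewer cells of a type and less RNA per cell cannot be told apart, so a level does not say how many fibres made it.

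**Figure D2:**
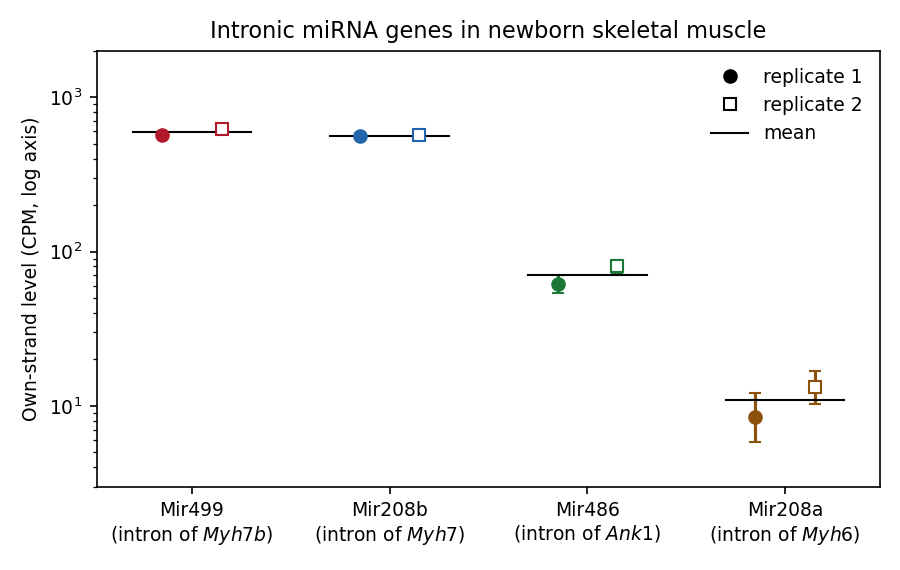
Own-strand level of the 4 genes in CPM on a log axis, filled circles for replicate 1, open squares for replicate 2, bars for exact Poisson 95% counting intervals and black lines for the mean. Mir499 and Mir208b lie between 560 and 626 CPM, Mir486 between 61.5 and 80.1 CPM and Mir208a between 8.52 and 13.2 CPM.

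Together the 4 genes held 0.120% of own-strand gene reads in replicate 1 (0.117 to 0.124) and 0.129% in replicate 2 (0.126 to 0.132; exact Clopper-Pearson 95% intervals). The 3 myosin genes accounted for nearly all of it, 0.114% and 0.121%. By mean level Mir499 ranked 109th and Mir208b 113th of the 1973 listed genes, of which 653 had any read. Mir486 ranked 194th and Mir208a 255th. A narrower comparison is with the 692 listed genes that lie, as these do, in an intron of a protein-coding gene on its own strand and outside its exons. Of these, 324 had reads, with a median of 0.953 CPM (quartiles 0.266 and 27.3). There Mir499 ranked 36th, Mir208b 39th, Mir486 71st and Mir208a 93rd. Mir499, Mir208b and Mir486 lay above the upper quartile of the intronic genes with reads, and Mir208a lay between the median and that quartile. Ranks and quartiles rest on counts without multimapping reads, and how far those reads would change them was not tested.

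**Figure D3:**
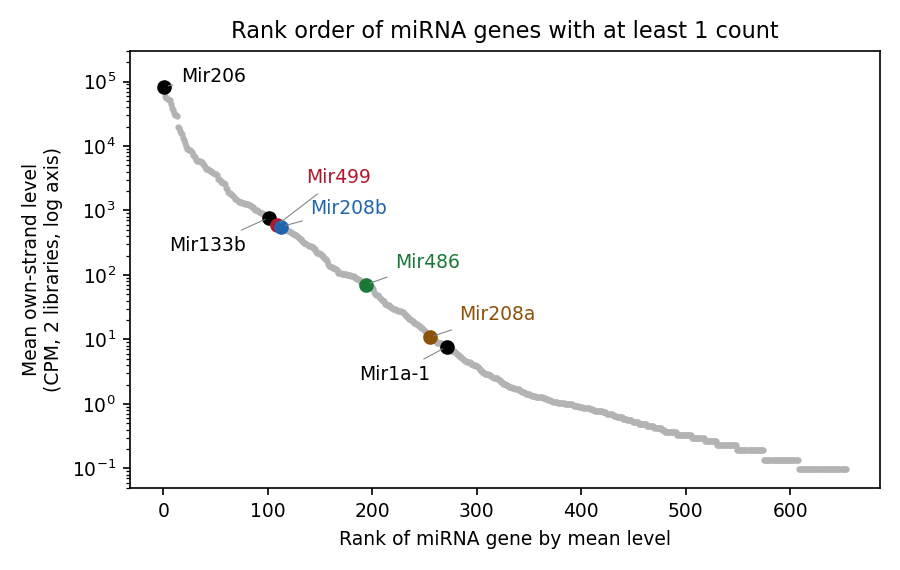
Mean own-strand level in CPM (log axis) against rank for the 653 miRNA genes with reads, with the 4 intronic genes in colour and 3 other muscle miRNA genes in black. By counted reads Mir499 and Mir208b sit beside Mir133b, well below Mir206, and Mir208a sits beside Mir1a-1. Multimapping reads stood outside these counts, so the place of Mir1a-1 is uncertain. Whether Mir133b lost reads in this way was not tested.

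The genes nearest in level, by Euclidean distance of log2(CPM + 1) over the 2 libraries among 369 candidates, came from many places. Mir499 was nearest to Mir128-1 (557 and 701 CPM in replicates 1 and 2; distance 0.167), which lies in an intron of R3hdm1, and to Mir494 (distance 0.179). Mir208b was nearest to Mir145a (583 and 551 CPM; distance 0.0709) and Mir323 (distance 0.149). Mir486 was nearest to Mir3099 (63.7 and 73.8 CPM; distance 0.125), in an intron of Usp29, and to Mir33 (distance 0.145), in an intron of Srebf2. Mir208a was nearest to Mir6945 (7.99 and 13.4 CPM; distance 0.0853) and Mir592 (distance 0.305). With 2 libraries, this distance mostly reflects the level itself.

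The other miRNA genes of striated muscle give the scale of these levels. Mir206, a skeletal muscle miRNA that promotes differentiation, had 83323 ± 5480 CPM (SD, n = 2). For each 1000 Mir206 reads there were 7.21 Mir499 reads in replicate 1 and 7.18 in replicate 2. The same ratio was 7.05 and 6.50 for Mir208b, 0.774 and 0.918 for Mir486, and 0.107 and 0.152 for Mir208a. The Mir499 ratio to Mir206 was thus nearly the same in both pups. Mir133b, made from the same transcript as Mir206, had 681 and 865 CPM. Mir1a-1 (6.39 and 8.96 CPM), Mir133a-1 (5.33 and 6.23 CPM) and Mir133a-2 (1.07 and 1.17 CPM) were below Mir208a in each library. Each has a near copy elsewhere, and multimapping reads, which were 30.2% and 29.9% of each library, stood outside the gene counts. The levels of these 3 genes, and their order against Mir208a, are uncertain for that reason. Whether Mir133b reads were also among the multimapping reads was not tested. The tables list no row for Mir1a-2, which was not analysed here.

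Between the 2 pups the measured ratio of each of the 4 genes was under 2-fold. All 4 values were higher in replicate 2, as were the values of 50.7% of the tested genes. This compares 2 libraries beyond counting error and no condition. With library sizes scaled by the trimmed mean of M values (TMM, edgeR), the log2 ratio of replicate 2 over replicate 1 was 0.26 for Mir499 (counting SE 0.040), 0.15 for Mir208b (SE 0.041), 0.51 for Mir486 (SE 0.119) and 0.76 for Mir208a (SE 0.307). An exact two-sided binomial test over 373 genes with at least 10 reads gave Benjamini-Hochberg adjusted p = 2.60e-10 for Mir499, 0.000713 for Mir208b, 4.00e-05 for Mir486 and 0.0253 for Mir208a. None reached the 2-fold minimum, which 5.09% of the tested genes passed together with the adjusted p, 0.536% toward replicate 2 and 4.56% toward replicate 1. On the adjusted p alone all 4 were higher in replicate 2, as were 25.7% of the tested genes, while 23.3% were higher in replicate 1, which makes 49.1% in either direction. The median log2 ratio was 0.39 over the 4 genes and 0.0059 over all tested.

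**Figure D4:**
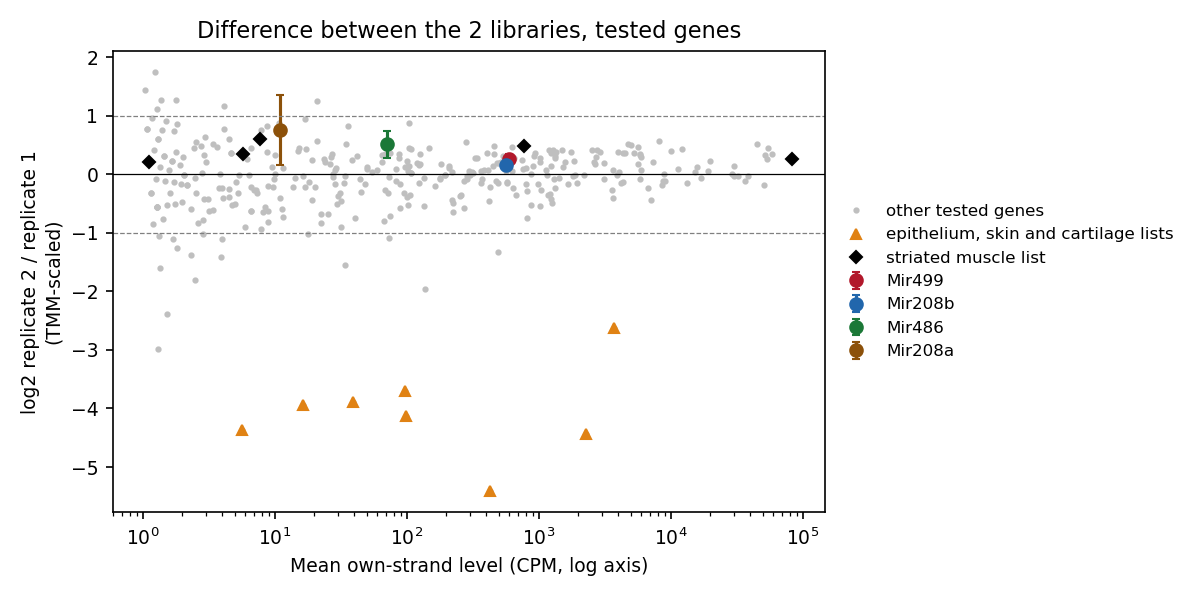
TMM-scaled log2 ratio of replicate 2 over replicate 1 against mean CPM (log axis) for the 373 tested genes, with the 4 intronic genes in colour and their 95% counting intervals, the striated muscle list as black diamonds and the epithelium, skin and cartilage lists as orange triangles; dashed lines mark 2-fold. The 4 genes lie between 0.15 and 0.76, while the orange genes lie between -2.63 and -5.42.

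Fewer of these differences were beyond counting error by total counts and by Mir206 reads than under TMM. By total counts, which shift the median of all genes to -0.13, the log2 ratio fell to 0.018 for Mir208b (adjusted p = 0.775, exact binomial test) and to 0.62 for Mir208a (adjusted p = 0.0823), so 2 of the 4, Mir499 and Mir486, stayed beyond counting error. Scaled by Mir206 reads, a setting chosen after seeing the data, Mir499 was at -0.0052 (adjusted p = 0.949), Mir208b was lower in replicate 2 at -0.12 (adjusted p = 0.0109), Mir486 was at 0.24 (adjusted p = 0.0736) and Mir208a at 0.49 (adjusted p = 0.201). Of all genes past the adjusted p, 52.5% were higher in replicate 2 under TMM, 35.2% under total counts and 18.3% under Mir206 scaling. Mir206 scaling moved the median of all genes to -0.26, and each scaling shifts every gene alike, so the distances between the 4 ratios were the same under all 3.

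**Figure D5:**
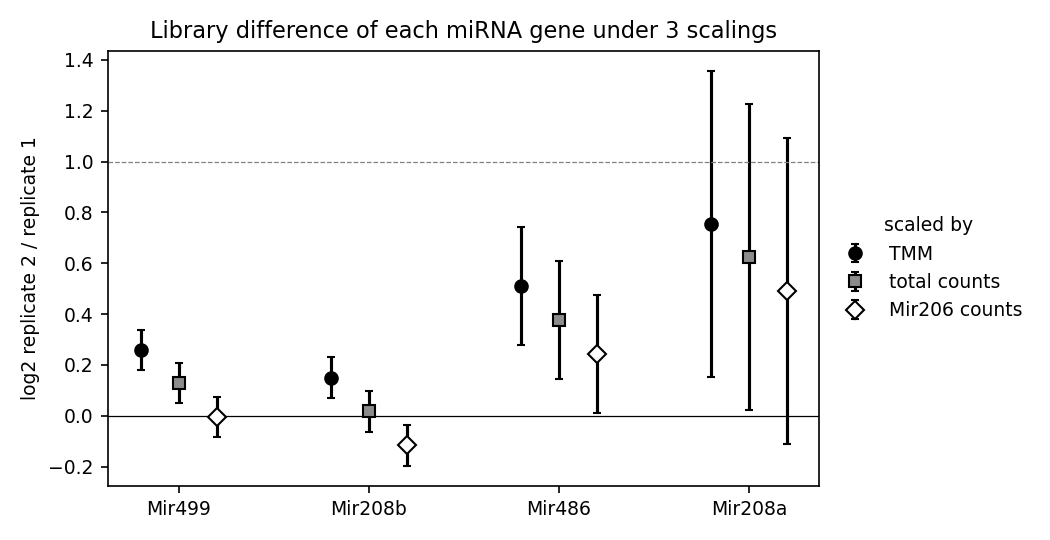
Log2 ratio of replicate 2 over replicate 1 for each gene with libraries scaled by TMM (black circles), total counts (grey squares) or Mir206 reads (open diamonds), with 95% counting intervals; the dashed line marks 2-fold. Each scaling moves all 4 genes by the same amount, for example Mir499 from 0.26 to -0.0052 and Mir486 from 0.51 to 0.24.

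The libraries also differed in genes of other tissues. The 7 genes of the epithelium and skin list summed to 5688 CPM in replicate 1 and 230 CPM in replicate 2, and all 7 passed the 2-fold rule. The cartilage gene Mir140 had 6539 and 966 CPM. Without these 8 genes in the total the log2 ratio was 0.0021 for Mir208b (adjusted p = 1) and 0.61 for Mir208a (adjusted p = 0.0814, exact binomial test), close to the values by total counts. Their part in the differences of the 4 genes was not tested beyond this. Of the striated muscle list 5 of 6 genes were listed, with sums of 80141 and 88079 CPM. Of these sums, 79447 CPM in replicate 1 and 87198 CPM in replicate 2 were Mir206 reads, with multimapping reads outside the counts. Mir206 (log2 ratio 0.27) and Mir133b (0.48) were higher in replicate 2 beyond counting error. The other 3 had ratios of 0.21 to 0.60 and did not pass.

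For Mir486, which red blood cells also make, the red cell list bears on the values. Mir451a, a red cell miRNA, had 336 CPM in replicate 1 and 206 CPM in replicate 2, a log2 ratio of -0.57 (adjusted p = 8.76e-21, exact binomial test). Mir144, made from the same transcript as Mir451a, had 80.7 and 93.3 CPM, a log2 ratio of 0.34 (adjusted p = 0.00335). The list, with both of its 2 genes listed, summed to 416 and 299 CPM. Mir451a was lower and Mir144 higher in replicate 2, so the list gives no single direction. The share of Mir486 reads that came from blood was not tested. Of the remaining lists, the white blood cell list summed to 646 and 458 CPM over 4 of 5 genes (Mir142 was not listed), led by Mir223. Mir126a, an endothelial miRNA, had 40785 and 36558 CPM. The fibroblast and smooth muscle list summed to 45400 and 41891 CPM over 6 genes, led by Mir143. The nerve and glia list summed to 1342 and 1577 CPM over 10 of 11 genes, led by Mir128-1. Its Mir124a-1, Mir124a-2, Mir124a-3 and Mir9-2 had 0 counted reads in both libraries. By counting error alone this allows up to 0.799 and 0.584 CPM each. Whether reads of these 4 genes were among the multimapping reads was not tested, so a count of 0 does not show that their miRNAs were absent. The liver miRNA Mir122 had 180 and 185 CPM. All list sums and leading genes rest on counts without multimapping reads. How far those reads would change them was not tested.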

How the data were processed

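The authors deposited whole-number read counts per miRNA gene for each library, made on build mm10 with GENCODE annotation M4, per the labels and the description deposited with each library. For the aligner and counter, nothing is stated in the sources used here. Each table has 3 unnamed count columns. The first equals the sum of the others in every gene, and from that layout the others were read as own-strand and opposite-strand counts. The own-strand column was used. The 4 leading lines for reads outside genes stayed out of totals. They held 30.2% and 29.9% of all reads as multimapping, and own-strand genes held 52.6% and 51.6%. Names, coordinates and introns came from GENCODE M21, which matched 1894 of 1973 identifiers, and sequences from RefSeq (GRCm38.p6).

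Counts were scaled to CPM. Library ratios used TMM factors (edgeR 4.0.16, R 4.3.3) and 0.5 added to each count. Genes with at least 10 reads in total were tested by an exact binomial test (scipy 1.17.1) with Benjamini-Hochberg adjustment over all of them, a threshold of 0.05 and a 2-fold minimum. The procedure was tested on simulated data. Alternatives were DESeq2 1.42.0 size factors, total counts, both strands, other pseudocounts, filters and denominators, and length. The 2 libraries were not copies, with a chi-square 281 times its degrees of freedom. Each library is 1 pup, so spread between pups also holds that of dissection and library preparation. The 4 genes, the marker lists and the tests were chosen with earlier results of these data known. Named were the 4 genes, their 2 nearest genes in level, muscle and red cell list genes, seed relatives, overlapping miRNA genes and, of other lists, the most abundant gene and those at 0. Mir140 and Mir122 are the sole genes of their lists.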

Additional observations from a re-analysis of the deposited data

Results flagged for a closer look

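Reads on the strand opposite Mir486 stayed out of the values above, and they lay above the 3 reads that a count of 0 allows. There were 20 in replicate 1 and 28 in replicate 2, which is 5.33 and 5.45 CPM. They made up 7.97% of the reads at the place in replicate 1 (exact Clopper-Pearson 95% interval 4.93 to 12.0) and 6.38% in replicate 2 (4.28 to 9.09). With the reads of all listed genes pooled, the opposite-strand share was higher, 9.97% of gene reads in replicate 1 and 11.4% in replicate 2. That pooled share weighs abundant genes most, and the share of a typical single gene was not tested. Mir499, Mir208b and Mir208a had 0 opposite-strand reads in both libraries. Mir486 was the only one of the 4 with a miRNA gene annotated on the other strand, Mir3107. An antisense gene, Gm15816, also lies over it on the minus strand (23138794 to 23149585) and was not among the listed genes. Which of the genes those reads came from was not tested.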

How the results depend on the processing

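No paired analysis was possible because both libraries belong to a single group. The order of the 4 mean levels was the same under every alternative run for levels and pairs. Levels moved with the denominator. With all reads in it, Mir499 had 312 CPM, Mir208b 294 CPM, Mir486 36.8 CPM and Mir208a 5.66 CPM, and the 4 genes held 0.0648%. Counting both strands gave 535 CPM for Mir499, 503 CPM for Mir208b and 0.112% for the 4 genes, and leaving Mir206 out of the total gave 654 CPM, 615 CPM and 0.136%. Per kb of annotated hairpin, Mir208b held 93.0% of its pair with Mir486 (88.9% by reads), and Mir486 held 81.0% of its pair with Mir208a (86.8% by reads). Each library alone stayed within 1 SD of the mean, which with 2 libraries is always so. The library difference needs both libraries, so none could be left out.

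None of the 4 genes reached 2-fold under any alternative. The number beyond counting error was 4 under TMM and also under DESeq2 size factors, both strands, a pseudocount of 1 and both other filters. It was 2 under total counts, where Mir208b was at 0.018 and Mir208a at 0.62. It was 2 without the epithelial and cartilage genes, an alternative chosen after seeing the data, where they were at 0.0021 and 0.61. It was 1 under Mir206 scaling, also chosen after seeing the data, where Mir499 was at -0.0052, Mir208b at -0.12, Mir486 at 0.24 and Mir208a at 0.49. That scaling lowers every gene alike against TMM and moved the median of all genes to -0.26. The signs of Mir499 and Mir208b thus depend on the scaling, and which scaling is right was not tested. Genes at 2-fold over all tested ran from 14 to 27 around 19. Depth limits Mir208a most, at 32 and 68 reads.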
